A study of Mus musculus with 12 samples.

Results

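The 7 mouse liver genes described here are 6 genes of the glucocorticoid response and Serinc3, a membrane protein gene listed with them. The 6 are the receptor gene Nr3c1, its co-chaperone Fkbp5, the hormone-regenerating enzyme Hsd11b1 and the responsive genes Tat, Tsc22d3 and Sgk1. They were chosen by name from earlier results on these same libraries, and each symbol was matched in the gene tables. All 7 were found in every library, among 16239 named genes. Which comparison led to the choice is not recorded, so the group differences below describe these libraries and are not independent evidence. Any adjusted p-value only places a gene within the whole table of 12587 genes tested.

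The data were 12 RNA-seq libraries of whole liver from 129/B6 mice aged 10 months, in 4 groups of 3. Mice carried a floxed thrombospondin 1 (TSP1) gene, labelled WT, or were labelled as lacking TSP1 specifically in macrophages. Both genotypes ate LF or HF diet during 8 months, and the groups are called by diet and genotype as LF or HF floxed and LF or HF knockout. The study concerns TSP1 from macrophages in the fatty liver disease of obesity. No group in the series had an unmodified TSP1 gene, and the labels do not name the Cre driver, the composition of either diet, the sex, or the hour of killing and feeding state. The labels number the replicates without naming animals, so p-values measure only the spread between these libraries, which may be technical.

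Glucocorticoids are adrenal steroid hormones that follow a daily rhythm and rise with fasting and stress. In the cell they bind the glucocorticoid receptor, which chaperones hold in a hormone-ready form. The bound receptor enters the nucleus and binds palindromic DNA elements. In liver it is best known for raising genes of glucose production and amino acid breakdown, and for raising genes that dampen its own signal.

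Promoter windows from RefSeq (build GRCm38.p6; the deposited files use mm9) matched 6 of the 7 genes, in 13 windows of 300 bases that run from 250 bases before an annotated start to 50 after it. The full palindromic receptor element was searched as the arms AGAACA and TGTTCT with any 3 bases between them, its inner core as ACANNNTGT and a single arm as AGAACA, all on both strands, and a full element also counts as a core and as single arms. The full element was found in 1 window of these genes, which belongs to Sgk1, and in 3 of all 32851 windows (0.00913%). The other windows with it belong to Acnat2 and to Gm35041. The core was found in 3 of the 13 windows of these genes, against 6.85% of all windows, and the single arm in 4 of the 13, against 19%. Sgk1 has 6 of the 13 windows, Tsc22d3 has 3, and Fkbp5, Tat, Hsd11b1 and Serinc3 have 1 each, so more sequence of Sgk1 was searched. The upstream bases of the 4 windows that show the element, a core or the single arm of another responsive gene are given 5′ to 3′ with the matches in capitals, because they carry the sequence differences between Sgk1, Tsc22d3 and Serinc3.
Sgk1 chr10:21993640-21993889 (+): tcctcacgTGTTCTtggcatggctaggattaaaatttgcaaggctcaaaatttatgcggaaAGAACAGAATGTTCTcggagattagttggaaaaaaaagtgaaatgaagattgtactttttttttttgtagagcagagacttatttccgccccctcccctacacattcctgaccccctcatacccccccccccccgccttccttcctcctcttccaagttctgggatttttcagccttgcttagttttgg
Sgk1 chr10:21978422-21978671 (+): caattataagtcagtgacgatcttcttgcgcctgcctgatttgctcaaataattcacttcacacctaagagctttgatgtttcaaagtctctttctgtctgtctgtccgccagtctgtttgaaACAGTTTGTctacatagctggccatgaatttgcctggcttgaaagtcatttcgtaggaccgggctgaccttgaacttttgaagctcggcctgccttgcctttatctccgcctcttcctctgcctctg
Tsc22d3 chrX:140600523-140600772 (-): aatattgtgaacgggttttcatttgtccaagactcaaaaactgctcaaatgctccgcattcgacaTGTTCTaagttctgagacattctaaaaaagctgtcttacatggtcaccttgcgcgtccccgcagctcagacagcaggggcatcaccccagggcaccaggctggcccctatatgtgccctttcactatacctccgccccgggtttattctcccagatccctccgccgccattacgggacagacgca
Serinc3 chr2:163645144-163645393 (-): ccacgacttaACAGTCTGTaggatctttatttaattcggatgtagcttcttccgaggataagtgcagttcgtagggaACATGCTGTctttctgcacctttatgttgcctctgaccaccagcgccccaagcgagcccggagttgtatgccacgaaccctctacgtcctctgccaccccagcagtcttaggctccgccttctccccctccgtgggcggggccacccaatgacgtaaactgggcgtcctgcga
Counted from the annotated start, the full element of Sgk1 begins at -189 and reads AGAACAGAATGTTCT, with a further single arm at -242. A second start of Sgk1 has a core at -127, Serinc3 has cores at -240 and -173, and Tsc22d3 has a single arm at -185. Other starts of Sgk1, whose bases are not printed here, have a single arm at -195 and at -13. The windows of Fkbp5, Tat and Hsd11b1 held none of these matches, and bases outside the windows were not searched. A match describes letters only and does not show that the receptor binds there.

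Levels are given as FPKM, fragments scaled to gene length and library size, as the authors deposited them. Libraries held 16131506 to 16536016 estimated counts, and the 84 counts of the 7 genes ranged from 90 to 16789. Thbs1, which encodes TSP1, was at 0.06 to 0.11 FPKM in LF floxed and 0.08 to 0.55 in LF knockout libraries, and at 0.31 to 0.75 in HF floxed and 0.16 to 1.63 in HF knockout libraries. It was therefore not lower in the libraries labelled knockout, and genotypes below are as labelled. Thbs1 in whole liver can come from any of its cells, so it does not check a deletion in macrophages. Near-identical libraries were replicates 2 and 3 of LF knockout and replicates 1 and 2 of HF floxed (chi-square per degree of freedom 2.85 and 8.87, against 50.7 to 527.77 for the other pairs of 1 group). They differed by more than sampling noise and were all kept, but each pair may be repeat libraries of 1 animal. In these groups n = 3 may then stand for 2 animals, and their SDs and p-values may be too small. HF knockout replicate 2 stood apart, with 72054 FPKM of Alb against at most 43610 in the other libraries, and replicate 3 of that group held 82.3 FPKM of the neutrophil gene Ngp. The deposited files of HF floxed replicate 3 and HF knockout replicate 1 are named in another form than the rest. In bulk liver, fewer cells of a type and less RNA per cell cannot be told apart.

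Group differences were fitted with edgeR on the counts, where a log2 fold change is centred so that most genes sit near 0. At a false discovery rate of 5%, none of the 7 genes was called for HF against LF in floxed livers (0% of all tested genes called), for HF against LF in knockout livers (0%), for knockout against floxed on HF (0%), for knockout against floxed on LF (0.0159%), or for the diet by genotype interaction (0.0159%). At an unadjusted p under 0.05 they numbered 2, 0, 1, 1 and 1 of 7 in that order, against 1532, 1534, 963, 646 and 1202 of all 12587 genes. DESeq2 called 1 of the 7, Sgk1, for HF against LF in floxed livers and for knockout against floxed on LF. It called 240, 124, 62, 34 and 111 genes in the same order of comparisons. Sgk1 was the member with the smallest p in each of these 2 comparisons.

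**Figure D1:**
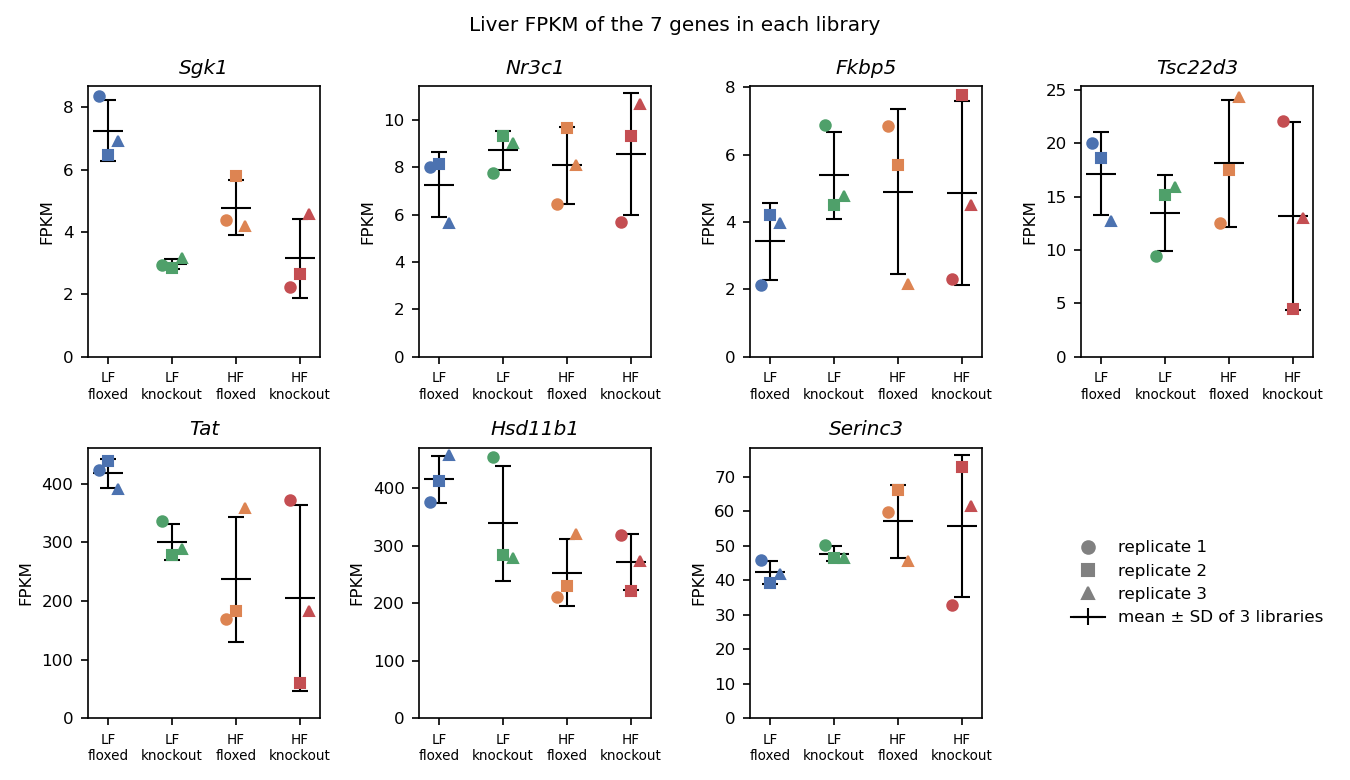
Deposited FPKM (vertical axis, linear, from 0) of the 7 genes in the 4 groups (horizontal axis). Each point is 1 library, its shape gives the replicate number, and bars are the mean ± SD of 3 libraries; Sgk1 in LF knockout lies between 2.86 and 3.17, below all LF floxed libraries, and Tat spans 59.6 to 373 within HF knockout.

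Sgk1 (gene 20393) encodes serum and glucocorticoid regulated kinase, which is raised by corticosteroids, growth factors and osmotic stress and controls ion channels and transporters. In LF floxed livers it was at 8.36, 6.47 and 6.92 FPKM, and in LF knockout livers at 2.94, 2.86 and 3.17. In HF floxed livers it was at 4.38, 5.80 and 4.18, and in HF knockout livers at 2.23, 2.65 and 4.59. Every LF floxed library was above every library of the other 3 groups. The LF knockout libraries, which include a near-identical pair, lay closest together and did not overlap either floxed group, and HF knockout overlapped HF floxed and LF knockout.

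The Sgk1 means were ordered LF floxed (7.25 ± 0.987, SD, n = 3), HF floxed (4.79 ± 0.883), HF knockout (3.16 ± 1.26) and LF knockout (2.99 ± 0.161). Neighbours in this order overlapped between HF floxed and HF knockout and between HF knockout and LF knockout. In the edgeR fit, Sgk1 was 2.72-fold lower in knockout than in floxed livers on LF (log2 fold change -1.44, SE 0.21; edgeR adjusted p = 0.0592), which was rank 5 of 12587 genes by p. It was 1.83-fold lower on HF than on LF in floxed livers (-0.87, SE 0.21; edgeR adjusted p = 0.215). On HF, knockout livers were 1.41-fold below floxed livers (-0.50, SE 0.21; edgeR adjusted p = 0.624), and this became -0.76 without HF knockout replicate 3, the highest of its group.

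In knockout livers the diet difference of Sgk1 was 0.07 (SE 0.21; edgeR adjusted p = 0.917) and turned to -0.19 without HF knockout replicate 3. The difference of the diet effects between genotypes was 0.94 (log2, SE 0.30; edgeR adjusted p = 0.423), and 0.69 without that library. The LF genotype difference kept its sign in all 25 alternatives, from -1.53 to -1.04 on the log2 scale, while its adjusted p ran from 3.64e-06 in DESeq2 to 0.937 with near-identical libraries averaged. Adjusted p in edgeR was 0.0425 without HF knockout replicate 2, 0.0309 without HF knockout replicate 3, 0.323 without LF floxed replicate 1 and 0.616 without LF knockout replicate 2. The counts behind Sgk1 were 328, 258 and 275 in LF floxed and 118, 113 and 127 in LF knockout libraries.

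Among the cell type markers measured beside Sgk1, the 8 sinusoidal endothelial markers summed to 40.58 to 67.87 FPKM in LF floxed and 70.19 to 75.43 in LF knockout libraries. The 7 Kupffer cell markers summed to 43.52 to 116.72 and 51.29 to 84.44 in the same groups. The 8 hepatocyte markers summed to 60403 to 83404 and 58022 to 77657. In deposited FPKM the endothelial sums ran opposite to Sgk1 on LF, and the hepatocyte and Kupffer cell sums overlapped. FPKM shifted the median gene up by 0.15 on the log2 scale in this comparison, and the sums were not rescaled. Of the 8 endothelial markers, 0 had an unadjusted edgeR p under 0.05, against 5.13% of all genes tested. On HF the endothelial sums were 64.36 to 85.69 in floxed and 25.62 to 102.47 in knockout livers. In HF knockout the endothelial sums rose from replicate 1 to replicate 3, as Sgk1 did in FPKM. The 7 Kupffer cell markers summed to 49.96 to 246.48 there and to 58.94 to 98.33 in HF floxed livers. Of these 7, 3 had an unadjusted edgeR p under 0.05 for knockout against floxed on HF (42.9%, against 7.65% of all genes). The 9 neutrophil markers summed to 5.05 to 523.79 in HF knockout. Replicate 3, with the highest Sgk1 of its group, had the top neutrophil, Kupffer cell, endothelial, stellate cell and T and NK cell sums. Replicate 2 had the top hepatocyte, monocyte-derived macrophage, cholangiocyte and B cell sums. The part of any cell type in Sgk1 was not tested.

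Nr3c1 (gene 14815), the receptor, was at 8.02, 8.13 and 5.67 FPKM in LF floxed and at 7.78, 9.34 and 9.05 in LF knockout livers. It was at 6.45, 9.68 and 8.11 in HF floxed and at 5.68, 9.34 and 10.7 in HF knockout livers. All 4 groups overlapped. Its log2 fold changes lay between -0.11 (SE 0.21) for HF against LF in floxed livers and 0.16 (SE 0.21) for knockout against floxed on HF. Receptor transcript varied by 1.89-fold between the lowest and the highest of the 12 libraries, the smallest ratio among the 7 genes.

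Fkbp5 (gene 14229) encodes a co-chaperone that lowers hormone binding by the receptor and is itself raised by it. It was at 2.12, 4.20 and 3.97 FPKM in LF floxed and at 6.87, 4.50 and 4.78 in LF knockout livers. It was at 6.85, 5.68 and 2.15 in HF floxed and at 2.31, 7.75 and 4.51 in HF knockout livers. The LF knockout libraries were all above the LF floxed ones in FPKM, with 4.50 as the lowest knockout and 4.20 as the highest floxed value. After TMM scaling of the counts these groups overlapped. The edgeR log2 fold change on LF was 0.48 (SE 0.43; edgeR adjusted p = 0.929), and on HF both genotypes spanned a wider range than the distance between their means.

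Hsd11b1 (gene 15483) encodes the enzyme that regenerates active corticosterone from its inactive form inside hepatocytes. It was at 375, 412 and 458 FPKM in LF floxed and at 454, 284 and 278 in LF knockout livers. It was at 211, 229 and 320 in HF floxed and at 319, 222 and 274 in HF knockout livers. Each HF floxed library was below each LF floxed library, and the other pairs of groups that share a diet or a genotype overlapped. The mean was 253 ± 58.2 in HF floxed and 415 ± 41.1 in LF floxed livers (SD, n = 3). In the edgeR fit on TMM-scaled counts it was 1.92-fold lower on HF (log2 fold change -0.94, SE 0.33; edgeR adjusted p = 0.316). In knockout livers the HF against LF value was -0.27 (SE 0.33; edgeR adjusted p = 0.773), and it was 0.05 without LF knockout replicate 1.

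Tat (gene 234724) encodes tyrosine aminotransferase, which starts tyrosine breakdown and is a long-used liver target of the hormone. It was at 424, 438 and 390.4 FPKM in LF floxed and at 336, 279 and 288 in LF knockout livers. It was at 169, 182 and 359 in HF floxed and at 373, 59.6 and 183 in HF knockout livers. LF floxed was above both LF knockout and HF floxed in every library. The near-identical HF floxed pair was low and the third HF floxed library was at 359, while HF knockout held both a library near the LF values and the lowest of all 12.

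The Tat mean was 417 ± 24.5 in LF floxed and 301 ± 30.8 in LF knockout livers, and on the HF diet it was 237 ± 106 in floxed and 205 ± 158 in knockout livers (SD, n = 3). In the edgeR fit Tat was 2.04-fold lower on HF than on LF in floxed livers (log2 fold change -1.03, SE 0.60; edgeR adjusted p = 0.504), or -1.61 without HF floxed replicate 3. Knockout against floxed on LF was -0.64 (SE 0.59; edgeR adjusted p = 0.929). The spread of Tat within groups, an SD of 0.846 on the log2 scale, was the largest of the 7 genes, against a median of 0.348 over all genes tested. Without HF knockout replicate 1 the diet difference of Tat in knockout livers was -1.44, and without HF knockout replicate 2 it was 0.04, against -0.42 with all libraries. That replicate 2 also had the highest Alb and 790.05 FPKM of Igfbp1, another hormone-responsive gene, against 3.83 to 67.33 elsewhere.

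Tsc22d3 (gene 14605) encodes GILZ, a leucine zipper protein that mediates part of the anti-inflammatory action of the hormone. It was at 20.1, 18.7 and 12.8 FPKM in LF floxed and at 9.41, 15.2 and 15.9 in LF knockout livers. It was at 12.6, 17.5 and 24.4 in HF floxed and at 22.1, 4.48 and 13.01 in HF knockout livers. All 4 groups overlapped, and the largest of its log2 fold changes was -0.56 (SE 0.52; edgeR adjusted p = 0.929) for knockout against floxed on LF. On HF that value was -0.30 (SE 0.51) and lay between -1.11 without HF knockout replicate 1 and 0.13 without HF knockout replicate 2. The 2 libraries whose files are named in another form held the highest Tsc22d3 values, 24.4 and 22.1, together with Fkbp5 values of 2.15 and 2.31, among the lowest.

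Serinc3 (gene 26943) encodes a membrane protein of the serine incorporator family, and it is listed with these genes by choice rather than as a known target of the receptor. It was at 45.9, 39.3 and 41.8 FPKM in LF floxed and at 50.2, 46.6 and 46.5 in LF knockout livers. It was at 60.0, 66.1 and 45.5 in HF floxed and at 32.8, 72.8 and 61.5 in HF knockout livers. LF knockout was above LF floxed in each library by FPKM, with 46.5 against 45.9 as the nearest values. After TMM scaling they overlapped, and the edgeR log2 fold change was 0.00 (SE 0.21), and up to 0.18 with limma on log2(FPKM + 0.1).

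**Figure D2:**
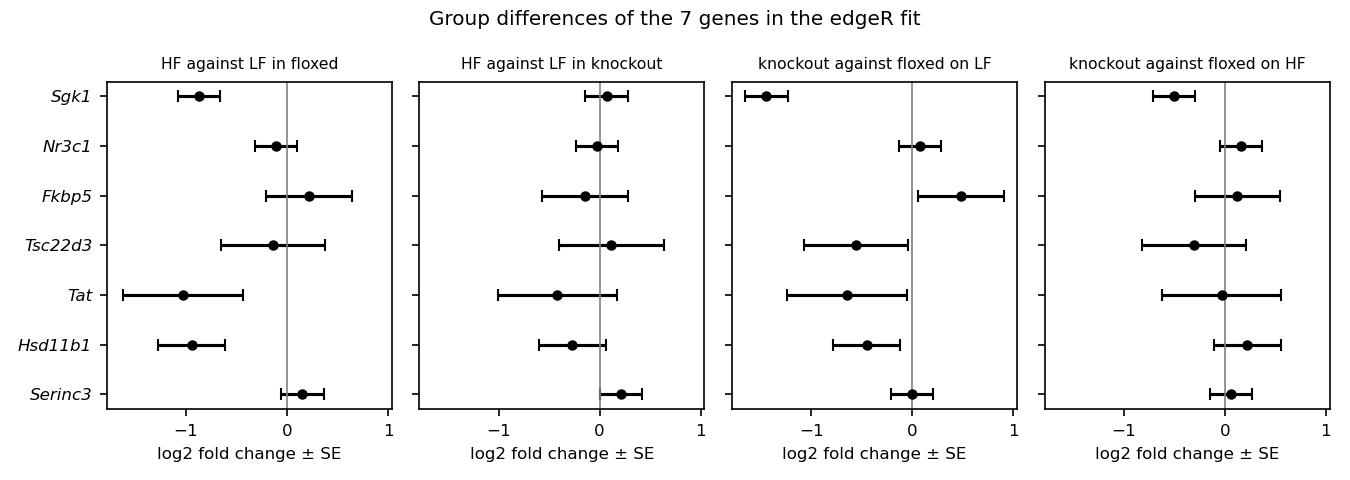
Log2 fold changes from edgeR (horizontal axis) with their SE (bars) for the 7 genes (vertical axis) in the 4 comparisons between groups of 3 libraries. Sgk1 for knockout against floxed on LF (-1.44) lies farthest from the line at 0, and Nr3c1 and Serinc3 stay within 0.21 of it in all 4 panels.

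How many of the 7 genes did not overlap depends on the scale, because FPKM as deposited shifted the median gene by 0.26 on the log2 scale for HF against LF in floxed livers and by 0.15 for knockout against floxed on LF. For HF against LF in floxed livers, 3 of 7 genes did not overlap on either scale, all lower on HF: Sgk1, Tat and Hsd11b1. The share over all genes was 26.9% in FPKM and 24% in TMM-scaled CPM, the counts scaled to library size by edgeR. For knockout against floxed on LF, 4 of 7 did not overlap in FPKM, against 18.2% of all genes. These were Sgk1 and Tat, lower, and Fkbp5 and Serinc3, higher. In TMM-scaled CPM only Sgk1 and Tat were apart, 2 of 7 against 13.4%.

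Cell type markers were also compared between HF and LF floxed livers, where Sgk1, Tat and Hsd11b1 were lower on HF. The 8 hepatocyte markers summed to 49897 to 52456 FPKM on HF against 60403 to 83404 on LF, without overlap, and all 8 had a log2 fold change below 0 (median -0.67). Of these 8, 2 were apart in FPKM, against 26.9% of all genes, and 0 had an unadjusted edgeR p under 0.05, against 12.2%. The 9 stellate cell markers were all above 0 (median 1.29), with sums of 107.63 to 209.03 against 58.05 to 102.35 FPKM. Of these 9, 7 were apart in FPKM and 4 had an unadjusted edgeR p under 0.05 (44.4%), above the shares of all genes. The 7 monocyte-derived macrophage markers were all above 0 as well (median 1.93), with sums of 38.65 to 121.86 against 18.44 to 40.55 FPKM. Of these 7, 5 were apart in FPKM and 4 had an unadjusted edgeR p under 0.05 (57.1%), also above those shares. None of these markers was called or at 0 in a whole group, and their part in the lower Sgk1, Tat and Hsd11b1 was not tested.

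None of the 7 genes was apart for HF against LF in knockout livers, where 11.6% of all genes were apart in FPKM and 13.9% in TMM-scaled CPM. The same held for knockout against floxed on HF, with 9.33% and 10.1% of all genes. Both comparisons include the HF knockout group, in which Sgk1, Tat, Tsc22d3, Fkbp5 and Serinc3 each spanned more than 2-fold in FPKM. On TMM-scaled log2 CPM, Sgk1 ran from 2.84 to 3.54 and Serinc3 from 7.37 to 8.18 in that group, less than 2-fold. The comparisons share groups of libraries, so Sgk1 and Tat below LF floxed in both of the others rests on the same 3 LF floxed libraries.

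Library by library, Fkbp5 and Tsc22d3, both commonly used as readouts of receptor activity, ran opposite to each other. Over the 12 libraries Pearson's r on log2 CPM was -0.849 and Spearman's rho was -0.72. It was -0.854 without HF knockout replicate 2, -0.872 for deviations from the group means, and -0.856 over 10 libraries with the near-identical pairs averaged. These r are descriptions: the 12 points fall in 4 groups and share the scaling of each library. The libraries at the ends of the relation were HF knockout replicate 2 (Fkbp5 7.75, Tsc22d3 4.48 FPKM) and HF floxed replicate 3 (2.15 and 24.4).

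Tat ran with Tsc22d3 (r = 0.819) and with Hsd11b1 (r = 0.835) and opposite to Serinc3 (r = -0.815) over the 12 libraries. Without HF knockout replicate 2 these were 0.595, 0.92 and -0.627, so the first and the last rest in part on that library. Sgk1 had r between -0.395 and 0.485 with the other 6 genes. Its SD over the 12 libraries was 0.632 on the log2 scale against 0.238 within groups. For Tsc22d3 the same values were 0.718 and 0.759, and for Fkbp5 0.551 and 0.606.

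**Figure D3:**
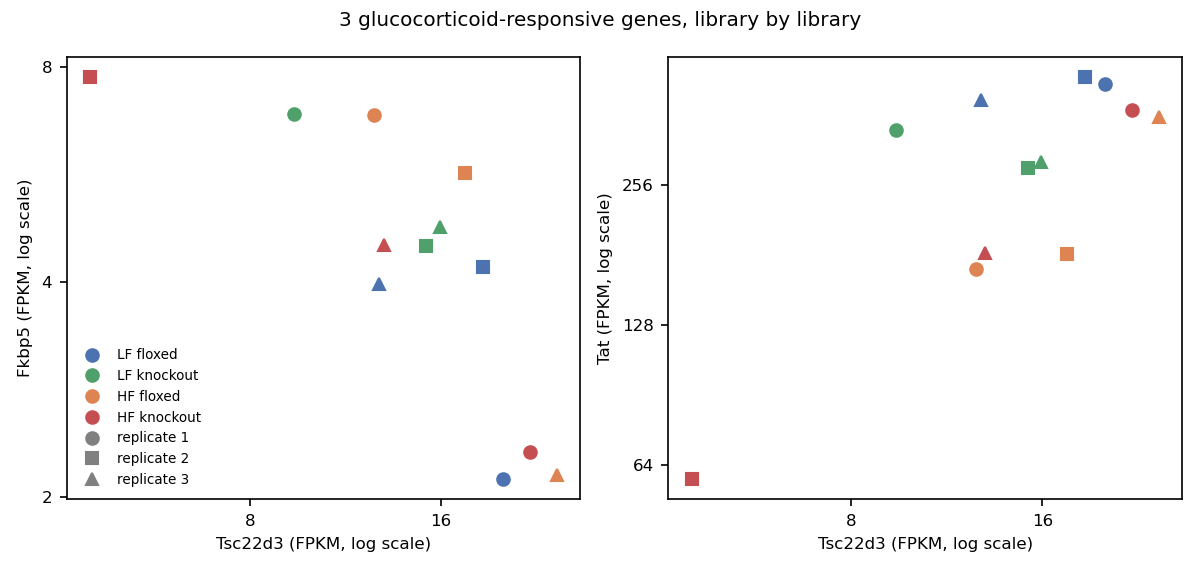
FPKM of Fkbp5 (left) and Tat (right) on the vertical axes against Tsc22d3 on the horizontal axes, all on log scales, with 1 point for each of the 12 libraries (colour, group; shape, replicate number). Fkbp5 is at 7.75 where Tsc22d3 is lowest (4.48) and at 2.15 where it is highest (24.4), and Tat is lowest (59.6) in the library with the lowest Tsc22d3.

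Dbp, a clock output gene whose level swings over the day, was at 1.98, 90.8 and 57.9 FPKM in LF floxed and at 84.2, 4.24 and 5.03 in LF knockout livers. It was at 2.44, 2.39 and 4.97 in HF floxed and at 34.1, 3.97 and 2.64 in HF knockout livers. Hsd11b1 ran with it (r = 0.787 over 12 libraries), and the LF knockout library with 84.2 FPKM of Dbp was the one with 454 FPKM of Hsd11b1. In the other direction, LF floxed replicate 1 had the lowest Dbp of the 12 libraries (1.98 FPKM) with Hsd11b1 at 375 and Tat at 424. Tat had r = 0.565 with Dbp and Sgk1 had r = 0.102. With the Dbp level as a covariate, the HF against LF value in floxed livers was -0.63 for Tat, -0.58 for Hsd11b1 and -1.01 for Sgk1. Dbp was low in all HF floxed libraries and the hour of killing is not given, so that fit cannot separate either from the diet. The part of Dbp or of the hour of killing in these values was not tested.

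By the same measure of likeness, r on log2 CPM over the 12 libraries among 12241 protein-coding genes, the genes most like Sgk1 were Slc35d2 (0.882), Tgfbr3l (0.853), Mob4 (0.836), Nudt6 (0.804) and Cryzl1 (0.803). Tgfbr3l was at 1.12 ± 0.238 FPKM in LF floxed and 0.28 ± 0.151 in LF knockout livers (SD, n = 3). The nearest were Map3k2 (0.913) and Ankrd28 (0.91) for Nr3c1, Man2a2 (0.911) and Ccdc14 (0.905) for Fkbp5, and C9 (0.945) and Cyp2d9 (0.941) for Tsc22d3. They were Ces3b (0.985) and Slco1a1 (0.982) for Tat, Serpinc1 (0.965) and Gls2 (0.961) for Hsd11b1, and C1qtnf1 (0.946) and Lama4 (0.945) for Serinc3. Some of these genes were at low FPKM over the 12 libraries: Ccdc14 at 0.04 to 0.34, Lama4 at 0.12 to 1.14 and Tgfbr3l at 0.12 to 1.38. These r are the highest of many and are a description.

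Beside the 7 genes, 30 other glucocorticoid-induced liver genes were listed and all were tested. None was called in any comparison, and 4, 5, 3 and 2 had an unadjusted p under 0.05 for HF against LF in floxed livers, HF against LF in knockout livers, knockout against floxed on HF and knockout against floxed on LF. These are 13.3, 16.7, 10 and 6.67% of the list, near the 12.2, 12.2, 7.65 and 5.13% of all genes tested. In the same order, 5, 6, 3 and 4 of the 30 did not overlap in FPKM, against 26.9, 11.6, 9.33 and 18.2% of all genes. In floxed livers 11 were higher and 19 lower on HF, with a median log2 fold change of -0.25 against 0.00 for all genes. In knockout livers 16 were higher and 14 lower (median 0.06, against 0.03). Knockout against floxed gave 13 higher and 17 lower on HF (median -0.06, against 0.03) and 11 higher and 19 lower on LF (median -0.21, against -0.02).

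**Figure D4:**
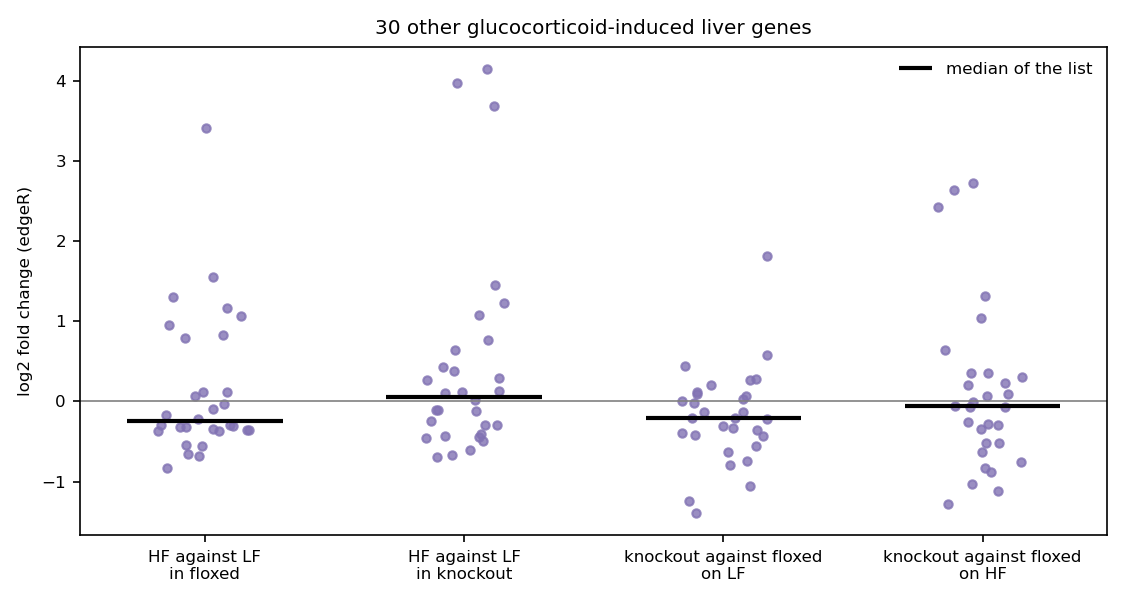
Log2 fold changes from edgeR (vertical axis) of 30 other glucocorticoid-induced liver genes, 1 point per gene, in the 4 comparisons (horizontal axis); thick bars are the list's medians (-0.25, 0.06, -0.21 and -0.06). Most points lie within 1 of the line at 0, and none was called.

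G6pc, the last enzyme of glucose production, was at 121, 201 and 121 FPKM in LF floxed and at 58.8, 66.1 and 65.3 in LF knockout livers. It was at 105, 103 and 119 in HF floxed and at 74.1, 14.3 and 76.9 in HF knockout livers. In FPKM, knockout was below floxed in all libraries on both diets, and after TMM scaling the HF groups overlapped. The genotype differences had log2 fold changes of -1.39 (SE 0.505) on LF and -0.84 (SE 0.50) on HF (edgeR adjusted p = 0.929 and 0.72). Pck1, the other key gluconeogenic enzyme, overlapped on both diets, with means on LF of 524 ± 178 in floxed and 429 ± 227 in knockout livers, and on HF of 352 ± 25.3 and 243 ± 204 (SD, n = 3). Zbtb16, a zinc finger gene induced by the receptor, was at 3.21, 4.55 and 1.25 FPKM in HF floxed against 0.74, 0.70 and 0.95 in LF floxed livers. Its log2 fold change was 1.55 (SE 0.47; edgeR adjusted p = 0.277), in the other direction than Sgk1, Tat and Hsd11b1. On LF, Zbtb16 was lower in every knockout (0.60, 0.43 and 0.58 FPKM) than in every floxed library on both scales, the same direction as Sgk1 and Tat. In knockout livers it was higher in every HF (0.61, 2.32 and 0.79) than in every LF library on both scales. The nearest values, 0.61 on HF and 0.60 on LF, were almost equal and came from 65 and 69 estimated counts.

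The metallothionein Mt1 was higher in all HF knockout libraries (377, 145 and 91.7 FPKM) than in HF floxed ones (55.9, 47.1 and 11.2), with a log2 fold change of 2.73 (SE 0.81; edgeR adjusted p = 0.598). Per1, Klf9, Dusp1, Tdo2, Igfbp1 and Pdk4, named beside these as receptor targets, overlapped in FPKM between genotypes on both diets. After TMM scaling, Dusp1 was lower in all HF knockout than in all HF floxed libraries. Their HF against LF values in floxed livers were -0.17 for Per1, -0.32 for Klf9, -0.30 for Dusp1, 0.12 for Tdo2, 1.30 for Igfbp1 and 0.96 for Pdk4. Of these 6 genes, 3 were higher and 3 lower on HF in floxed livers, and none was called. In knockout livers Klf9 was lower in every HF than in every LF library on both scales. Per1 was apart in this way in FPKM only, and Tdo2 after TMM scaling only. Dusp1, Igfbp1 and Pdk4 overlapped. Of all genes, 11.6% were apart there in FPKM and 13.9% in TMM-scaled CPM.

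The receptor's chaperones and coregulators numbered 17 tested genes with 0 called. Knockout against floxed gave 12 higher and 5 lower on LF (median 0.16) and 7 higher and 10 lower on HF (median -0.01). HF against LF gave 9 higher and 8 lower in floxed (median 0.06) and 4 higher and 13 lower in knockout livers (median -0.27). Hsp90aa1, the inducible cytosolic chaperone of the receptor, was at 59.2, 27.7 and 30.8 FPKM in LF floxed and at 75.4, 82.9 and 79.0 in LF knockout livers. It was at 73.0, 85.0 and 89.7 in HF floxed and at 44.8, 42.3 and 62.0 in HF knockout livers. Knockout was above floxed on LF and below it on HF with no overlap. Fkbp4, the co-chaperone that favours hormone binding, was at 61.9 ± 19.2 in LF floxed and 89.9 ± 4.22 in LF knockout livers (SD, n = 3), without overlap in FPKM but with overlap after TMM scaling, and with a log2 fold change of 0.35 (SE 0.30; edgeR adjusted p = 0.929).

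Of 9 listed genes of corticosteroid metabolism and transport, 8 were tested and 0 were called. HF against LF gave 2 higher and 6 lower in floxed (median -0.11) and 3 higher and 5 lower in knockout livers (median -0.42). Hsd11b2, which inactivates corticosterone, was listed at 0 or 0.03 FPKM and was not among the tested genes. Srd5a1, a reductase that clears the hormone, was at 57.6, 44.5 and 44.5 FPKM in LF floxed and at 39.1, 23.5 and 24.7 in LF knockout livers. It was at 31.6, 31.8 and 36.2 in HF floxed and at 16.7, 3.08 and 15.6 in HF knockout livers. Knockout was below floxed in every library on both diets, by -0.91 (SE 0.51) on LF and -1.33 (SE 0.51) on HF (edgeR adjusted p = 0.929 and 0.610). H6pd, which supplies the cofactor of Hsd11b1, had log2 fold changes of -0.01 for HF against LF in floxed livers and 0.08 for knockout against floxed on LF. Serpina6, the plasma carrier of the hormone, was at 179 ± 72.9 and 232 ± 48.1 FPKM in floxed and knockout livers on LF, and at 106 ± 23.7 and 177 ± 87.9 on HF (SD, n = 3).

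The SGK1 kinase pathway list had 16 tested genes and 0 called. Knockout against floxed gave 11 higher and 5 lower on LF (median 0.14) and 7 higher and 9 lower on HF (median -0.02). The sister kinases Sgk2 and Sgk3 were at 23 ± 4.74 and 1.02 ± 0.285 FPKM in LF floxed and at 29.7 ± 15.2 and 1.44 ± 0.125 in LF knockout livers (SD, n = 3). Sgk2 was at 47.2 FPKM in LF knockout replicate 1, and its other LF knockout libraries, at 21.4 and 20.4, lay within the LF floxed range of 17.6 to 26.1. The log2 fold changes on LF were 0.23 for Sgk2 and 0.33 for Sgk3 (edgeR adjusted p = 0.956 and 0.941). The kinase substrates Nedd4l and Ndrg1 had values of -0.11 and -0.21 in that comparison, and 0.05 and 0.73 for HF against LF in floxed livers.

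In the serine incorporator family the 4 tested genes other than Serinc3 were all higher on HF in floxed livers, with a median log2 fold change of 0.33 against 0.00 for all genes and 0 called. Serinc2 was at 5.65, 7.10 and 9.03 FPKM in LF floxed and at 23.4, 21.98 and 10.1 in HF floxed livers, without overlap (log2 fold change 1.05, SE 0.30; edgeR adjusted p = 0.263). In HF knockout livers it was at 6.89, 4.65 and 10.2, overlapping HF floxed in FPKM but not after TMM scaling, with a value of -1.20 against HF floxed (edgeR adjusted p = 0.564). Serinc3 itself gave 0.15 for HF against LF in floxed livers, and Serinc1 and Serinc5 gave 0.03 and 0.44.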

How the data were processed

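Total RNA of flash-frozen liver was sequenced by BGI, per the labels' protocols. Per the submitters' processing notes the build was mm9. Which aligner, counting tool and annotation were used is not given in the sources used here. The deposited file of each library holds estimated counts (expected counts), not scaled, and FPKM values that the authors scaled to gene length and library size, per the file headers. Of the estimated counts, 87.0 to 88.1% per library were whole numbers, and all 84 of the 7 genes were whole. Genes absent from a file were taken as 0, and 1229 unnamed loci (6.65 to 17.33% of the counts) were left out.

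Rounded counts of 12587 genes were fitted with edgeR 4.0.16 in R 4.3.3 (TMM, filterByExpr, quasi-likelihood F tests, 1 mean per group over all 12 libraries), with Benjamini-Hochberg adjustment over all genes and calls at a false discovery rate of 5%. Log2 CPM for correlations used a prior count of 2. Non-overlap was counted over the same genes. The fit was tested on simulated counts with known changes.

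Alternatives were DESeq2 1.42.0, its size factors in edgeR, other filters on low counts, limma 3.58.1 on log2 of FPKM plus 1 or plus 0.1 (genes of 1 FPKM or more in 3 libraries, or no filter), the compared groups only, a replicate block, each library left out, near-identical libraries averaged, and unnamed loci kept. After the data were seen, the Dbp level as a covariate and leaving out both libraries with files named in another form were added. The members and the gene lists were chosen with earlier results of these data known. Besides the 7 genes, 26 genes were named by a written list, with the genes of highest r for each member by rule. Promoter windows are from RefSeq tables of GRCm38.p6.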

Additional observations from a re-analysis of the deposited data

Results flagged for a closer look

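Hsp90aa1, the chaperone of the glucocorticoid receptor, gave opposite genotype differences on the diets. The diet by genotype difference was -1.45 on the log2 scale (edgeR adjusted p = 0.396): knockout livers were above floxed livers by 0.83 on LF and below them on HF, at -0.63, and every library of each group lay on that side. It did not pass the adjustment over all genes.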

How the results depend on the processing

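Of 35 log2 fold changes of the 7 genes, 14 kept their sign in every alternative and 21 did not, with 82 of 868 alternative values of the other sign. None of the 7 genes was called in the alternatives except Sgk1. DESeq2 called 1 of them for HF against LF in floxed livers and 1 for knockout against floxed on LF, where the fit of the compared groups only also called 1, and where leaving out single libraries gave 0 to 1. In the order HF against LF in floxed, HF against LF in knockout, knockout against floxed on HF, knockout against floxed on LF and interaction, the numbers of genes called were 0, 0, 0, 2 and 2; with DESeq2 they were 240, 124, 62, 34 and 111. Without both libraries with files named in another form they were 158, 2, 3, 7 and 5, with Dbp as a covariate 0, 2, 0, 3 and 1, and with the compared groups only 82, 0, 0 and 11. They were 0 in all 5 with near-identical libraries averaged, 1 for HF against LF in floxed livers with no filter, and 3 there and 1 for the interaction with unnamed loci kept. With limma on log2(FPKM + 0.1) they were 1 for HF against LF in floxed livers and 1 for knockout against floxed on LF. With log2(FPKM + 1) the latter was 0, also with no filter, which gave 1 for knockout against floxed on HF. Leaving out single libraries gave 0 to 14, 0 to 10, 0 to 14, 0 to 13 and 1 to 17. The cause was not tested. With replicate number as a replicate block, genes called were 0 for knockout against floxed on LF and 1 for the interaction, and the adjusted p of Sgk1 on LF was 0.193. Same-numbered libraries had r from -0.331 to 0.404, over 0.1 in 3 of 18. Without r of differently numbered libraries beside them, these values do not settle whether the numbers pair the libraries. Sgk1 rests on 90 to 328 counts per library, and 3 libraries per group limit every comparison.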

Other observations

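A list of 14 clock genes held output genes such as Dbp and core loop genes such as Arntl, Clock and Per2. Of these 14, 10 were lower on HF in floxed livers (median log2 fold change -0.60) and 12 in knockout livers (median -0.52). None was called by edgeR. At an unadjusted edgeR p under 0.05 there were 3 and 0 (21.4 and 0% of the list, against 12.2% of all genes in both). The list was not split by the hour at which its genes peak, so these counts give no direction of clock output. Of 7 tested immediate early genes, 4 were higher on HF in floxed livers (median 1.34) and 5 in knockout livers (median 1.03), with none called. In each of these comparisons 4 had an unadjusted edgeR p under 0.05 (57.1%, against 12.2% of all genes tested). This was not particular to diet. For knockout against floxed the share was 57.1% on HF and on LF, against 7.65 and 5.13% of all genes. For the interaction it was 71.4%, against 9.55%. The monocyte-derived macrophage markers summed to 748.95 FPKM in HF knockout replicate 2, the library with the lowest Tat and Tsc22d3, against 18.44 to 121.86 FPKM in the other 3 groups. The cholangiocyte markers summed to 754.91 FPKM there, against 21.79 to 108.78 in those groups. Spp1, which is on both lists, was at 743.15 FPKM in that library, and its hepatocyte markers summed to 106429 FPKM, the highest of the 12 libraries. Those clock and immediate early lists were chosen with earlier results of these data known.

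Between the 2 libraries whose files are named in another form, knockout minus floxed on HF was -0.71 for Sgk1 and 0.24 for Tat on the log2 CPM scale, and between the means of the other 4 HF libraries it was -0.43 and -0.66. For Tsc22d3 these values were 0.05 and -0.89, and for Fkbp5 0.26 and 0.03.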
